A study of Rattus norvegicus with 2 samples.

Results

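The contractile genes of the heart muscle cell described here are 9 genes of the thick and thin filaments: the myosin heavy chains Myh6 and Myh7, the myosin light chains Myl2, Myl3 and Myl4, the skeletal alpha-actin gene Acta1, the troponin I genes Tnni1 and Tnni3, and the cardiac troponin T gene Tnnt2. They were taken by symbol from the platform annotation, which gave 1 symbol to 7006 non-control probe sets and named 4736 genes. All 9 genes were on the array, with 16 probe sets between them. The study compared 2 arrays, called the high-salt and low-salt hearts below. The first held cardiac RNA from male Dahl salt-sensitive rats aged 17 weeks on a high-salt diet, labelled as having chronic heart failure, and the second RNA from male rats of the same strain and age on a low-salt diet. Dahl salt-sensitive rats become hypertensive when fed salt, and the diet is the treatment that separates the groups. The labels do not say whether an RNA came from 1 animal or several, or which chamber was sampled. With 1 array per diet there is no spread between animals, no test was possible, and every difference is one between these arrays.

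In the sarcomere, myosin heavy chains form the motor of the thick filament and hydrolyse ATP, light chains brace the lever arm of that motor, and actin, tropomyosin and the troponins make up the thin filament that calcium switches on. Most of these parts exist as isoforms from separate genes. In rodents the fetal ventricle uses beta-myosin heavy chain (Myh7), slow skeletal troponin I (Tnni1), the atrial light chain Myl4 and skeletal alpha-actin (Acta1), and the adult ventricle uses alpha-myosin heavy chain (Myh6), cardiac troponin I (Tnni3), Myl3 and cardiac alpha-actin (Actc1). A return of fetal isoforms, with beta-myosin replacing the faster alpha-myosin, is a textbook feature of pressure overload in the rat.

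Myh6 and Myh7 are neighbours in the RefSeq annotation of the GRCr8 rat assembly, with 0 annotated genes between them, and each carries a microRNA of the same family within it. The 3' arms of those microRNAs are shown because they tie the heavy chain pair together by sequence; their levels were not analysed here. The bases in capitals are the seed, bases 2 to 8, and the seed is the same in both. The RefSeq positions are chr15:32395568-32395585 for miR-208a-3p, inside Myh6, and chr15:32421648-32421665 for miR-208b-3p, inside Myh7, both on the minus strand.
rno-miR-208a-3p: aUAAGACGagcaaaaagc
rno-miR-208b-3p: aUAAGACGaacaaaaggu

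RefSeq start-site windows were found for 8 of the 9 genes. The 250 bases before the start are shown for Acta1 and Tnni3, which had the highest and the lowest ratio among probe sets with a plain _at name and whose windows end at the outermost annotated start. The windows of Myh6 and Myh7 lie inside the genes' annotated range and are not shown. Capitals mark matches to the CArG box, which serum response factor binds, to M-CAT (CATTCC, or GGAATG on the other strand), which TEAD factors bind, and to TATAAA on the gene's own strand. The Acta1 window (GRCr8, chr19:68784195-68784444, minus strand) held all of these without overlap: a CArG box from 94 to 85 bases before the start, an M-CAT match from 67 to 62 and TATAAA from 29 to 24. The Tnni3 window (GRCr8, chr1:78342321-78342570, plus strand) held none of these letters. Of 33469 RefSeq windows of 250 bases, 1.5% held a CArG box, 12.1% an M-CAT match and 8.06% TATAAA. The Myl3 window also held a CArG box and M-CAT matches on both strands, and the Myh6 window and a Tnnt2 window each held an M-CAT match. These are matches of letters and were not tested for binding.
Acta1: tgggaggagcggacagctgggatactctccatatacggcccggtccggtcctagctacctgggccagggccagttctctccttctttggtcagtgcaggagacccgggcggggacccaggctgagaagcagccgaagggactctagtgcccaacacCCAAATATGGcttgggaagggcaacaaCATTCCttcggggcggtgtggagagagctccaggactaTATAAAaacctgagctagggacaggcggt
Tnni3: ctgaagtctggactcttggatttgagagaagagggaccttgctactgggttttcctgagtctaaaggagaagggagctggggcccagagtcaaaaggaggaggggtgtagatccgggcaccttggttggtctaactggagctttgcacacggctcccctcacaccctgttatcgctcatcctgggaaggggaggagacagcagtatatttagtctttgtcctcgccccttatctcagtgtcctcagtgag

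The arrays were on a common scale, with a 2% trimmed mean of 100.2 on each. Some deposited intensities were below 0, and the 95th percentile of their size, 126.4, served as a noise floor; 20.0% of the probe sets reached it on the high-salt array and 20.3% on the low-salt array. The ratio of the 3' to the 5' control probe set, a guide to how intact the RNA was, was 1.30 and 1.22 for GAPDH and 1.16 and 1.10 for beta-actin on the high-salt and low-salt arrays. As the only measure of error within these arrays, the log2 ratio of high over low salt had a pooled SD of 0.22 among probe sets sharing a gene, over 231 genes. That SD holds no variation between animals.

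Of the 16 probe sets, 13 from 7 genes were above the noise floor on both arrays, with intensities from 1673.2 to 7677.8, and 3 from Myl4 and Tnni1 were under it on both. The contrast lay in the heavy chains and in skeletal alpha-actin: Myh7 was up to 2.08-fold higher in the high-salt heart, Acta1 was 1.52-fold higher, and Myh6 was up to 1.92-fold lower. The brightest probe set of each heavy chain differed by 1.07-fold, which is within the error, and with the brightest probe set of each gene 0 genes passed 2-fold. Tnni3 was lower by a smaller factor, and the ventricular light chains Myl2 and Myl3 and troponin T lay within the error. At 2-fold, 1 of the 13 probe sets was higher, 0 were lower and 12 were within 2-fold. Among all 1955 probe sets with a value above the noise floor, 3.53% were higher and 1.69% lower by that factor or more. Among the 344 probe sets with a mean of 1000 or more, the range in which all 13 lay, those shares were 4.36% and 0.872%. At 1.5-fold, 2 of the 13 were higher (background 8.75% of all and 9.88% of the bright probe sets) and 1 was lower (9.0% and 4.94%). The median log2 ratio of the 13 was -0.02, beside -0.04 for all probe sets and -0.03 for the bright ones. Here as elsewhere in whole tissue, fewer heart muscle cells and less RNA per cell cannot be told apart.

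**Figure D1:**
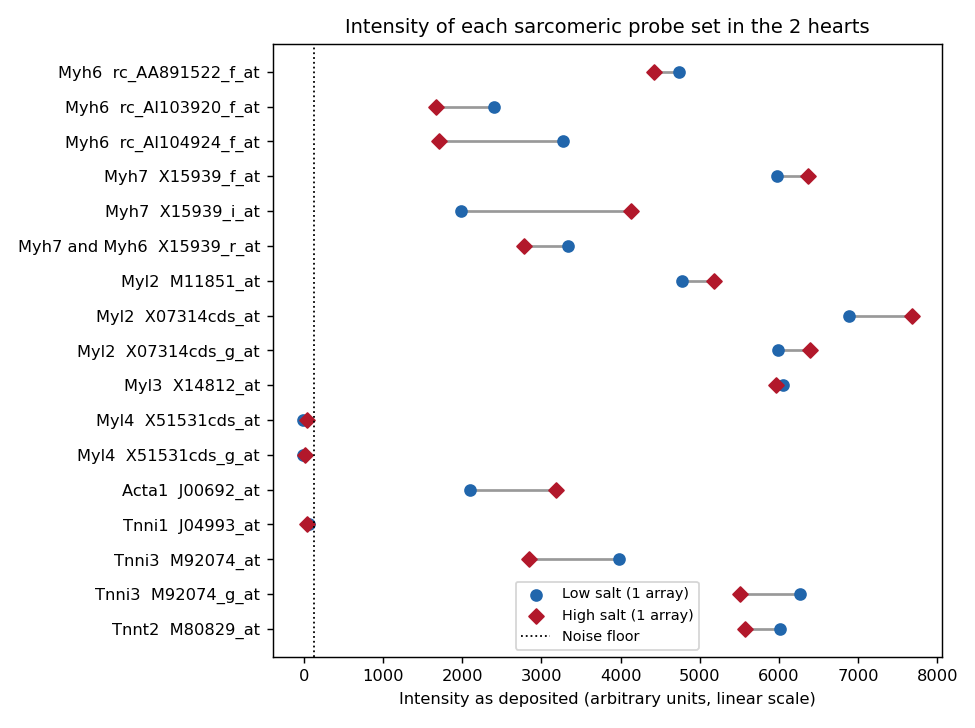
Deposited intensity (linear scale) of the 16 probe sets and of the probe set annotated to both Myh7 and Myh6, in the high-salt heart (diamonds) and the low-salt heart (circles), 1 array each; the dotted line is the noise floor of 126.4. The widest gaps are those of Myh7 X15939_i_at (4125.1 against 1988.0) and Myh6 rc_AI104924_f_at (1706.2 against 3276.7), and Myl4 and Tnni1 lie under the floor.

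Myh7, the slow beta-myosin heavy chain, was read by a pair of probe sets that differed widely. On the high-salt array X15939_i_at read 4125.1 and on the low-salt array 1988.0, which is 2.08-fold higher (log2 ratio 1.05). It was 14th highest of the 344 bright probe sets by log2 ratio. X15939_f_at read 6372.0 and 5980.7, a 1.07-fold difference (log2 ratio 0.09) that is smaller than the error of 0.22. Both log2 ratios were above 0, but only that of X15939_i_at exceeded the error, and they lay 0.96 apart. In the naming of these arrays, _f_at marks a set whose probes are shared by a family of similar transcripts, _i_at a set with fewer unique probes than usual, and _r_at a set for which some selection rules were dropped. The third probe set made from the same sequence record, X15939_r_at, is annotated to both Myh7 and Myh6 and was not counted for either. It read 2779.7 and 3337.3, 1.20-fold lower in the high-salt heart.

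Myh6, the fast alpha-myosin heavy chain of the adult rodent ventricle, was lower in the high-salt heart in all 3 of its probe sets, all of the shared-sequence _f_at type. rc_AI104924_f_at read 1706.2 against 3276.7 (log2 ratio -0.94), a 1.92-fold lower value and the 4th lowest log2 ratio of the 344 bright probe sets. rc_AI103920_f_at read 1673.2 against 2398.5, 1.43-fold lower (log2 ratio -0.52). rc_AA891522_f_at read 4416.3 against 4739.8, 1.07-fold lower, which is within the error. The largest and the smallest Myh6 ratio were 0.84 apart on the log2 scale, so how much lower Myh6 was depends on the probe set.

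Because probe sets of different genes bind with different strength, the levels of Myh6 and Myh7 cannot be set against each other within an array, but their changes can. The median log2 ratio of Myh7 minus that of Myh6 was 1.09, a 2.13-fold shift of the Myh7 to Myh6 balance in the high-salt heart. The 6 pairings of a Myh7 with a Myh6 probe set ran from 0.19 to 1.99 on the log2 scale, or 1.14-fold to 3.99-fold. Their shared direction follows from the signs of the single ratios, above 0 for Myh7 and below 0 for Myh6, and adds no support. The 0.19 came from the brightest probe set of each gene and is smaller than the SD of 0.22 of a single log2 ratio. A difference of 2 ratios has a larger error. Among its own probe sets the SD was 0.42 for Myh6 and 0.68 for Myh7. The probe sets of a gene share its RNA and are not replicates, and all of this pair but X15939_i_at are of the shared-sequence _f_at type, so the size of the shift is not fixed by these arrays.

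**Figure D2:**
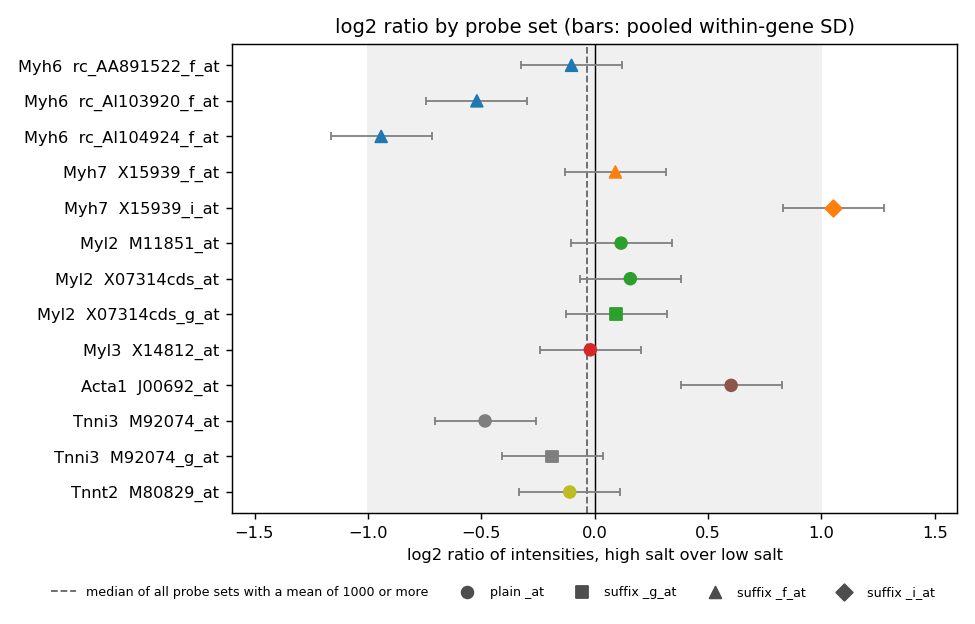
log2 ratio of high over low salt for the 13 probe sets above the noise floor; marker shape is the probe set type, horizontal bars are the pooled within-gene SD of 0.22, the shaded band is 2-fold and the dashed line is the median of the 344 bright probe sets (-0.03). All Myh6 probe sets lie left of 0 and both Myh7 probe sets right of it, and the spread within each heavy chain gene is wider than within Myl2.

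The ventricular light chains differed little. Myl2, the regulatory light chain of the ventricle, was read by 3 probe sets. M11851_at read 5174.2 on the high-salt and 4772.8 on the low-salt array, X07314cds_at 7677.8 and 6884.4, and X07314cds_g_at 6397.3 and 5990.0. All 3 were slightly higher in the high-salt heart, from 1.07-fold to 1.12-fold, although X07314cds_at turned to a log2 ratio of -0.02 with quantile normalization. Their log2 ratios of 0.09 to 0.16 were within the error. They lay within 0.06 of each other, the closest accord among members with several probe sets. Myl3, the essential light chain of the ventricle, read 5966.2 against 6046.3, a log2 ratio of -0.02 whose sign turned when the arrays were scaled to their medians or by loess.

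Myl4, the essential light chain of the atrium and the fetal ventricle, was not above the noise floor on either array. X51531cds_at read 38.4 on the high-salt and -9.6 on the low-salt array, and X51531cds_g_at read 13.4 and -11.8. Values of that size have no reliable order, so no ratio is given, and the Myl4 to Myl3 balance could not be followed.

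Acta1, skeletal alpha-actin, which the rat ventricle expresses before birth and again under load, read 3181.4 on the high-salt array and 2096.2 on the low-salt array. That is a 1.52-fold difference (log2 ratio 0.60), larger than the error and 33rd highest of the 344 bright probe sets. Its only probe set, J00692_at, is of the plain _at type. Actc1, the cardiac alpha-actin that Acta1 accompanies in the thin filament, read 8364.9 and 7848.9 (1.07-fold, log2 ratio 0.09) in its one probe set with a single symbol, of the _s_at type. The log2 ratio of Acta1 exceeded that of Actc1 by 0.51, a 1.42-fold shift towards skeletal alpha-actin between these arrays. It rests on 1 probe set of each gene, and a difference of 2 ratios has a larger error than a single ratio. The 3 bright probe sets annotated to both Acta2 and Actc1 had log2 ratios of -0.06, -0.02 and 0.07.

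Tnni3, cardiac troponin I, the inhibitory subunit of the adult heart, was lower in the high-salt heart in both probe sets. M92074_at read 2844.5 against 3976.3, 1.40-fold lower (log2 ratio -0.48, 23rd lowest of the 344). M92074_g_at, made from the same record, read 5503.1 against 6264.6, 1.14-fold lower (log2 ratio -0.19), which is within the error. Its fetal counterpart Tnni1, slow skeletal troponin I, read 39.5 and 57.6 in J04993_at, under the noise floor on both arrays, so a switch between the troponin I isoforms could not be followed. Tnnt2, cardiac troponin T, which anchors the troponin complex to tropomyosin, read 5576.1 against 6017.5, a 1.08-fold lower value within the error. In the RefSeq annotation Tnni1 and Tnnt2 lie on the same chromosome with 1 gene, Lad1, between them.

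The ratios also divided by brightness. The 8 probe sets with a mean intensity of 4000 or more, a split chosen after the values were seen, had log2 ratios between -0.19 and 0.16, and the 5 dimmer ones were all at least 0.48 from 0. For Myh6, Myh7 and Tnni3 it was in each case the brightest probe set of the gene that showed the smallest difference. Among the other bright probe sets of the array the median size of the log2 ratio was 0.14 at 4000 or more (39 probe sets) and 0.23 between 1000 and 4000 (292). The part of brightness in the size of a ratio was not tested.

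**Figure D3:**
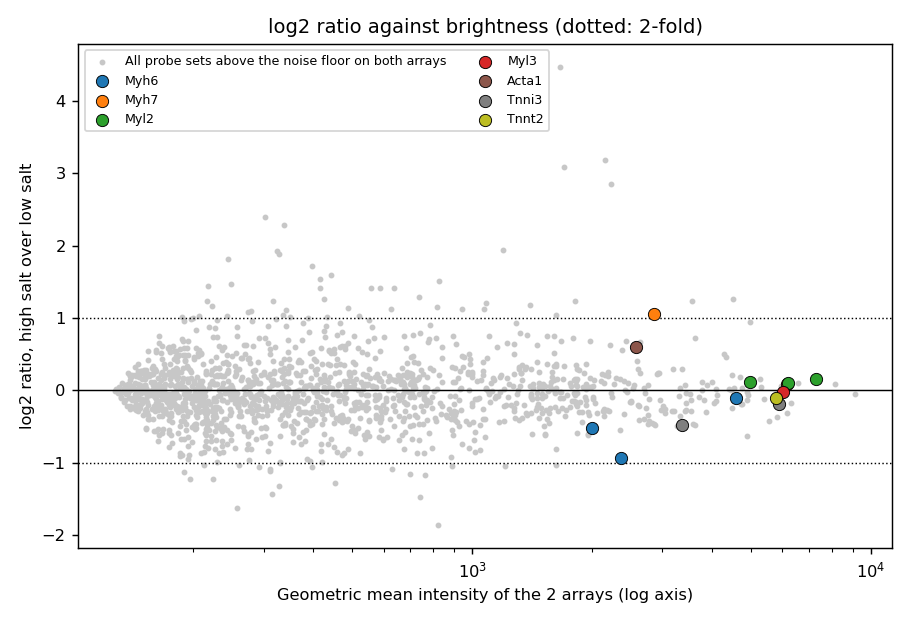
log2 ratio of high over low salt against the geometric mean intensity of the arrays (log axis) for every probe set above the noise floor on both (grey) and for the 7 genes (coloured). The probe sets of Myl2, Myl3 and Tnnt2 lie near 0 at the bright end, and the larger differences of Myh7, Acta1, Myh6 and Tnni3 occur at lower brightness.

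Other genes of the same machinery were taken from lists, each gene at its brightest probe set with 1 symbol. Of 14 further thin filament genes, 9 were on the array and 4 above the noise floor, 0 of them past 2-fold. Tpm3, a tropomyosin of slow muscle and of non-muscle cells, read 239.4 against 146.1 (1.64-fold higher), the lower value near the noise floor. Tmod1, which caps the pointed end of the filament, read 375.2 against 317.8, and the main cardiac tropomyosin Tpm1 5757.0 against 6140.5. Of 12 further thick filament and M-band genes, 6 were on the array and only Mylk2, a myosin light chain kinase, was above the floor, at 492.4 against 553.0. The skeletal muscle myosin list had 7 of 8 genes on the array and 3 above the floor, all with lower values in the high-salt heart: Myh1 read 285.8 against 345.0, the embryonic Myh3 305.0 against 336.5 and the perinatal Myh8 366.8 against 404.2. These differences were at most 1.21-fold, and those of Myh3 and Myh8 were within the error. Of all probe sets with a value above the noise floor, 54.32% were lower in the high-salt heart. The other Myh3 and Tpm3 probe sets with 1 symbol were under the noise floor on both arrays, so Myh3 and Tpm3 each rest on 1 probe set.

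Smooth muscle and non-muscle actomyosin genes had 12 of 15 members on the array, 7 above the floor and 0 past 2-fold, with a median log2 ratio of 0.16. Myl9, a regulatory light chain of smooth muscle, read 214.2 against 141.6 (1.51-fold higher), the lower value near the noise floor. The other Myl9 probe set read 141.9 against 64.5, 1.12-fold higher with the dimmer value raised to that floor. Myl6 read 211.7 against 259.5, Acta2, smooth muscle alpha-actin, 378.5 against 314.6, and Myl12a 2069.2 against 1757.7. Of 18 transcription factors and other regulators of muscle isoforms, 7 were on the array and 4 above the floor, 0 of them past 2-fold. Thra, the thyroid hormone receptor that raises Myh6 and restrains Myh7 in the rodent heart, read 118.7 against 179.3. With the dimmer value raised to the noise floor, Thra was 1.42-fold lower. Gata4, a cardiac transcription factor, read 176.6 against 67.5, 1.40-fold higher on the same basis. Its relative Gata6 read 288.7 against 299.3 and Nkx2-5 391.1 against 338.3. The other Gata4 probe set read 148.6 against 119.2, 1.18-fold higher on the same basis. The other Thra probe sets were under the noise floor on both arrays. The Thra and Gata4 values lie near that floor.

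Other genes of the fetal programme were read beside the contractile isoforms. All 6 were above the floor. Past 2-fold were 2 on the higher side and 1 on the lower side. Among all 1955 probe sets with a value above the noise floor, 3.53% were higher and 1.69% lower by that factor. The list was written with earlier results of these data known, so its counts are no test. Nppa, atrial natriuretic peptide, was 7.20-fold higher in its brightest probe set and 8.49-fold, 9.08-fold and 22.2-fold higher in its other probe sets, and Nppb, brain natriuretic peptide, 2.27-fold higher. With the dimmer value raised to the noise floor, Slc2a1, the glucose transporter of fetal heart, was 1.95-fold higher. On the same basis Pdk4, which holds back glucose oxidation, was 2.43-fold lower. Ankrd1, a stretch-responsive nuclear protein of heart muscle, was 1.41-fold higher. Atp2a2, the calcium pump of the sarcoplasmic reticulum, was 1.14-fold lower in its brightest probe set (log2 ratio -0.19), which is within the error. Another Atp2a2 probe set above the floor on both arrays, rc_AA957510_s_at, was 1.31-fold lower. Ankrd1 and Atp2a2 differed less than Acta1 or the largest ratios of Myh6 and Myh7. Ankrd1 differed more than the brightest probe sets of Myh6 and Myh7, at 1.07-fold each. The brightest Atp2a2 probe set was, like those, within the error. Ankrd1 and Atp2a2 are named after their values were seen.

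**Figure D4:**
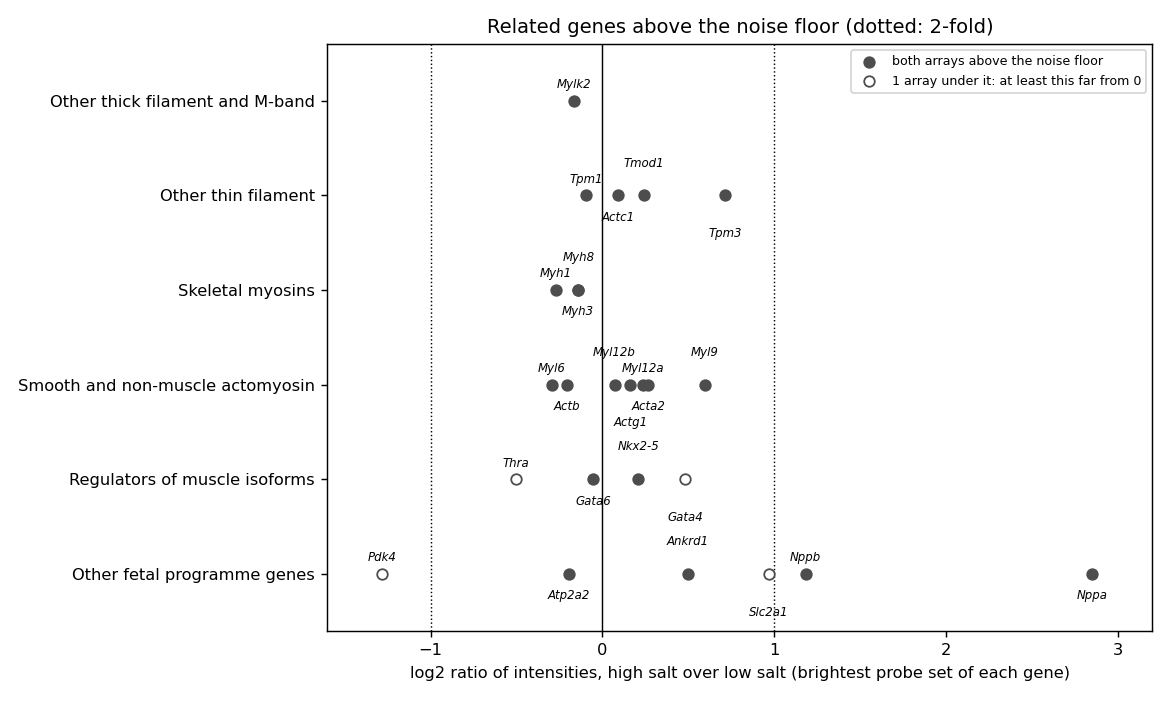
log2 ratio of high over low salt for related genes above the noise floor, by list, each at its brightest probe set. Open circles are genes with 1 array under the floor, whose lower value was raised to it. The "at least" of the legend takes no account of noise in the other value. Past 2-fold (dotted lines) were Nppa and Nppb on the higher side and Pdk4 on the lower side.

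Marker genes were read as a check of the labelled tissue. All 8 heart muscle markers were on the array, but 5 of them are Myh6, Myl2, Myl3, Tnni3 and Tnnt2 themselves. The intensities of all 8 summed to 39214.2 on the high-salt and 39799.9 on the low-salt array. Of the 7 above the floor 2 were higher and 5 lower in the high-salt heart, all but Pln within the error. Among all probe sets with a value above the floor 54.32% were lower. Of the markers outside the 9 genes, Actc1 and Pln (1624.3 against 1899.7), a regulator of the calcium pump, were above the floor. The calcium channel gene Ryr2 (85.5 against 98.7) was under it. Of the 3 atrial markers on the array, Myl4 and Myl7 (96.0 against 95.5) were under the floor and Nppa was above it. Of 9 skeletal muscle markers, Ckm (3062.3 against 4279.7), which heart muscle also expresses, and Myh1 were above the floor; Myh2, Myh4, Tnni2, Tnnt3, Pvalb, Chrna1 and Atp2a1 were under it on both arrays. The skeletal markers summed to 3450.1 and 4780.6, mostly through Ckm, and their part in the Acta1 ratio was not tested. Of 5 smooth muscle markers only Acta2 was above the floor, with sums of 425.6 and 365.7. The 3 red blood cell markers all passed 2-fold on the higher side in their brightest probe set (sums of 7944.9 and 3134.8). Of all 1955 probe sets with a value above the noise floor, 3.53% did so. Alas2 (698.0 against 104.5) and Slc4a1 (264.6 against 119.8) passed with the dimmer value raised to that floor. Another Slc4a1 probe set read 168.3 against 174.8. Of 6 fibroblast markers 4 were above the floor, 3 of them higher and 0 past 2-fold (sums of 2617.9 and 1767.1). None of the 3 endothelial markers reached it. The part of red blood cell and fibroblast RNA in the contractile gene ratios was not tested.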

How the data were processed

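Cardiac RNA was labelled with biotin by in vitro transcription and read on 1-colour arrays, per the labels' protocols; the naming of probe sets and controls is Affymetrix's for the rat. The deposited intensities are linear, 1 per probe set in each heart. How the authors computed them is not given in the sources used here. Because the 2% trimmed means differed by 0.0030%, no further scaling was applied. The table held 8799 probe sets, 59 of them controls. Of the others 7006 had 1 symbol in the platform annotation, 308 several and 1426 none. A probe set with several symbols named no gene.

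The log2 ratio of high over low salt was computed from the intensities after raising those under the noise floor of 126.4 to that floor. A ratio with 1 value under it is a bound that takes no account of noise in the other value. With both values under the floor none is given. No test, p-value or standard error was computed. The thresholds were 2-fold and, as an alternative, 1.5-fold. All 9 genes were described with every probe set, and up to 4 genes of each further list by the size of their ratio. The genes, the lists and the noise floor were chosen with earlier results of these data known. The steps were tested on simulated arrays. Alternatives were scaling to the trimmed mean or median, quantile and loess normalization (span 0.4), other floors, log2(value + 1), other folds and other choices of probe sets. Sequences and gene neighbours are from RefSeq on GRCr8; as no build was named for the array, no other coordinates are given. Python 3.11.15, numpy 2.4.6, pandas 2.3.3, statsmodels 0.14.6 and matplotlib 3.10.9 were used.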

Additional observations from a re-analysis of the deposited data

How the results depend on the processing

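Over 8 scalings and floors, the log2 ratios of the 13 probe sets above the noise floor moved by less than the within-gene SD of 0.22. All probe sets of Myh6, Myh7, Acta1, Tnni3 and Tnnt2 kept their sign, Myl2 X07314cds_at fell to -0.02 with quantile normalization, and Myl3 ran from -0.02 to 0.07. The count of probe sets at least 2-fold higher, 1 as reported, was 2 with the floor at the 40th percentile (10.9) and 3 with log2(value + 1), both through the dim Myl4; it was 2 at 1.5-fold, 0 at 3-fold, 0 with plain _at probe sets alone and 0 with the brightest probe set of each gene. The count at least 2-fold lower was 1 at 1.5-fold and otherwise 0. The Myh7 minus Myh6 log2 ratio of 1.09 was 0.19 with the brightest probe set of each gene. It had no value without the shared-sequence probe sets, because Myh6 then has none. Acta1 minus Actc1 ran from 0.49 to 0.62. Counting the probe set of both heavy chains, chosen after seeing the data, changed neither count. Tnni1 minus Tnni3 was -0.21 against the floor of 10.9 and -0.20 with log2(value + 1), and Myl4 minus Myl3 was 1.08 and 4.59; both rest on values under the noise floor. No paired analysis was possible because each diet has 1 array. The number of arrays limits the precision, and nothing under 126.4 can be ordered.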

Other observations

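The essential light chain Myl6, which pairs with myosins of smooth muscle and non-muscle cells, is also read by 4 probe sets annotated to several genes, among them Myl6b and Myl6l, and set aside above for that reason. They were singled out after their values were seen. All 4 were higher in the high-salt heart: S77858_s_at read 742.0 against 363.6 (2.04-fold), rc_AA894200_g_at 1789.4 against 1053.0 (1.70-fold), rc_AA875523_s_at 3322.9 against 2099.0 (1.58-fold) and rc_AA875523_i_at 201.6 against 162.7 (1.24-fold). The probe set with Myl6 as its only symbol, rc_AA894200_at, went the other way at 211.7 against 259.5. Which of the annotated genes the 4 probe sets read was not tested.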
